A study of Mus musculus with 12 samples.

Results

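Cd74 and the genes of MHC class II presentation were examined in sorted CD4+ CD25+ spleen T cells through 11 microarray probe sets that stand for 7 genes, out of 45037 probe sets other than array controls. The probe sets were given as a list with their genes: 1 for Cd74, 2 for H2-Aa, 3 for H2-Ab1, 1 for H2-Eb1, 1 for H2-DMa, 1 for Ciita and 2 for Cd86. Which measured values chose the members was not stated with the list. Since the strain difference of Cd74 in effector cells was known beforehand, the members were taken as chosen by it, and all values in the effector strain comparison are given as a description, without a test. If Treg values had a part in the choice as well, the p-values given for Treg cells are too small.

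Class II molecules are pairs of an alpha and a beta chain that show peptides from outside the cell to CD4+ T cells. Cd74, the invariant chain, holds newly made pairs and guides them to the compartments where peptides are loaded, and H2-DM then exchanges its remnant for peptide. Ciita is the master transcriptional coactivator of class II genes, which are made mainly by B cells, dendritic cells and macrophages, and resting mouse T cells make little of them. Cd86 on presenting cells is a ligand of the T cell receptors Cd28 and Ctla4.

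Transgenic Treg cells came from a line named C57BL/6-2Rbeta-WT/thymus transgenic, bred to IL-2Rbeta-deficient mice, so that the wild-type receptor beta chain is provided, as the name says, in the thymus while T cells outside it respond poorly to IL-2, a T cell growth factor. They were set against Treg cells of normal C57BL/6 mice. Both were isolated fresh from spleen, after depletion of CD8+ T cells and B cells, as CD4+ CD25hi cells. The transgenic Treg pools held 4 mice of 33 weeks, 8 mice of 13 weeks and 3 mice of 7 to 16 weeks, and the C57BL/6 Treg pools held 8 mice of 12 weeks, 8 mice of 12 weeks and 15 mice of 10 weeks. Effector cells of both strains were sorted as CD4+ CD25hi cells after whole spleen cells, B cells and other presenting cells included, had been cultured with anti-CD3 for 48 hours. Each effector array held 1 mouse, of 15, 14 and 9 weeks in transgenic and 10, 14 and 14 weeks in C57BL/6 mice. Each of the 4 groups had 3 arrays, described by the submitters as distinct biological replicates.

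Over the whole table, 218 of 18271 tested probe sets (1.19%) differed between strains in Treg cells and 547 (2.99%) in effector cells (limma adjusted p under 0.05). Array medians were 3.08 to 3.27 on the log2 scale. The lowest values were 0.942 to 0.957 on Treg arrays and 0.296 to 0.325 on effector arrays, and the median of all tested probe sets differed between Treg and effector cells by -0.21 in transgenic and -0.26 in C57BL/6 mice, so levels set across the populations carry a scale difference. For that reason the percentile of a value among all probe sets of its array is given beside such levels. A log2 value of 5 is used as the lower limit of the tested range. The files used here pair no probe set with a gene, so the receptor gene and the markers of T cells, B cells, dendritic cells and macrophages were not looked up, and the labelled cell types were not checked against them.

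Cd74 was high in transgenic effector cells, low in C57BL/6 effector cells and in between in both kinds of Treg cells. Its log2 values were 10.41, 10.61 and 10.69 on the transgenic effector arrays, against 6.14, 6.80 and 6.11 on the C57BL/6 effector arrays. The groups were far apart, with the nearest arrays of the strains separated by several times the spread within either group. The means were 10.57 ± 0.15 in transgenic and 6.35 ± 0.39 in C57BL/6 effector cells (SD, n = 3 each), an 18.6-fold difference (log2 4.22, standard error 0.24 from the group spreads). This was the 4th highest strain change among the tested probe sets in effector cells, which is the value taken to have led to the choice of the list. In bulk samples such as these, more cells that hold a transcript and more of it per cell cannot be told apart.

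In Treg cells Cd74 read 9.43, 8.53 and 8.52 on the transgenic arrays, against 9.85, 9.87 and 8.78 on the C57BL/6 arrays. These ranges overlapped, since transgenic array 1 lay above C57BL/6 array 3, while within each of the 3 pairs of same-numbered arrays the transgenic one was lower. The log2 change was -0.67 (standard error 0.33, limma adjusted p = 0.606), so no strain difference was called, nor was one with the pairs as a replicate block (limma adjusted p = 0.287). By mean level the groups ran from transgenic effector cells (percentiles 91.9 to 93.4 of their arrays) through C57BL/6 Treg cells (86.3 to 92.5) and transgenic Treg cells (84.7 to 90.3) to C57BL/6 effector cells (70.3 to 73.8). Neighbours in this order overlapped in percentile except for the last step, below which C57BL/6 effector cells stood apart.

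**Figure D1:**
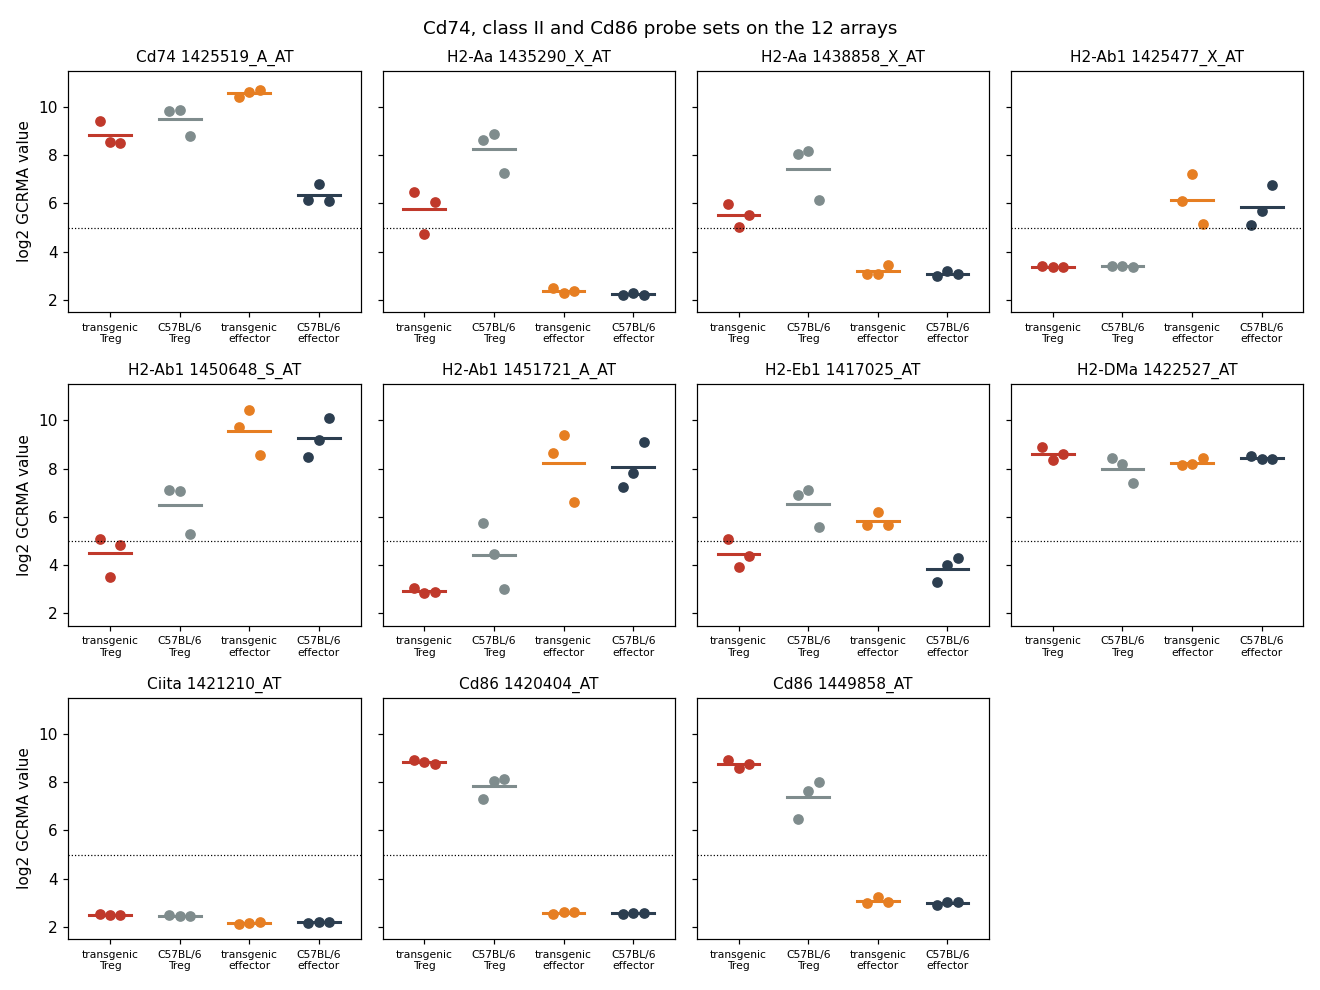
Log2 GCRMA value of each of the 11 probe sets on the 12 arrays, with 3 points and a mean line per group in the order transgenic Treg, C57BL/6 Treg, transgenic effector and C57BL/6 effector. The dotted line marks a log2 value of 5. The Cd74 panel shows transgenic effector arrays at 10.41 to 10.69, all above C57BL/6 effector arrays at 6.11 to 6.80.

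H2-Eb1, the beta chain of the second class II pair of mice, was the other member whose transgenic effector arrays lay clearly above the C57BL/6 ones. It read 5.67, 6.21 and 5.66 in transgenic effector cells, against 3.29, 3.99 and 4.30 in C57BL/6 effector cells. All 3 C57BL/6 values are below a log2 value of 5, so the 3.97-fold difference (log2 1.99, standard error 0.35) depends on the background correction. In C57BL/6 mice of the b haplotype the partner alpha chain of this pair is not expressed, which is background knowledge and was not measured here.

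The alpha chain H2-Aa did not follow Cd74 in effector cells. Probe set 1435290_X_AT read 2.52, 2.29 and 2.35 in transgenic effector cells, against 2.22, 2.28 and 2.20 in C57BL/6 effector cells, and 1438858_X_AT read 3.09, 3.08 and 3.47 in transgenic, against 2.99, 3.21 and 3.08 in C57BL/6 effector cells. All 12 of these values are below a log2 value of 5, and the 1.11-fold separation of the strains in the first probe set is between values near the floor. Ciita was at 2.14, 2.16 and 2.22 in transgenic and 2.16, 2.21 and 2.19 in C57BL/6 effector cells, also near the floor.

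H2-Ab1, the beta chain that pairs with H2-Aa, was well above the floor in effector cells of both strains. Probe set 1450648_S_AT read 9.73, 10.42 and 8.58 in transgenic effector cells, against 8.50, 9.21 and 10.12 in C57BL/6 effector cells. The arrays of 1 strain spread over as wide a range as those of the other and overlapped, with a log2 difference of 0.30 (standard error 0.71) that ranged from -0.12 to 0.80 when single arrays were left out. Probe set 1451721_A_AT read 8.64, 9.38 and 6.63 in transgenic and 7.26, 7.83 and 9.12 in C57BL/6 effector cells, and 1425477_X_AT read 6.12, 7.21 and 5.16 in transgenic and 5.12, 5.69 and 6.78 in C57BL/6 effector cells. All 3 probe sets were highest on transgenic array 2 among transgenic and on array 3 among C57BL/6 effector arrays, and lowest on transgenic array 3 and C57BL/6 array 1, so they ordered the arrays alike and unlike Cd74, for which the strains were separate.

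H2-DMa, a chain of the peptide exchange factor, was at 8.14, 8.18 and 8.44 in transgenic and 8.54, 8.39 and 8.39 in C57BL/6 effector cells, with overlapping groups and a log2 difference of -0.19 (standard error 0.11). Cd86 was near the floor in effector cells, with 2.53 to 2.61 in transgenic and 2.54 to 2.58 in C57BL/6 effector cells on 1420404_AT, and 3.00 to 3.24 in transgenic and 2.92 to 3.03 in C57BL/6 effector cells on 1449858_AT. In all, 3 of the 10 tested members had transgenic effector arrays entirely above the C57BL/6 ones (Cd74, H2-Eb1 and H2-Aa 1435290_X_AT, the last near the floor) and none had them entirely below, where 12.7% and 10.1% of the tested probe sets did. The median log2 change of the 10 tested members was 0.15, against -0.0053 over all tested probe sets.

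The effector cells were sorted out of a culture that also held presenting cells, so the purity given for each sample is set beside these values. The share of CD4+ CD25+ cells after the sort was given as 99.8%, 99.5% and 99.0% for the transgenic effector samples. It was given as 99.9%, 99.9% and 99.6% for the C57BL/6 effector samples. The share was slightly lower by mean in the strain with more Cd74, and the ranges overlapped. A share of CD4+ CD25+ cells does not tell which cells made up the rest. The part of purity in the result was not tested. The label on purification of transgenic effector array 3, the one at 99.0%, describes fresh spleen cells while its title describes cultured cells, and without that array the Cd74 change was 4.16. All members are genes that presenting cells are known for. Cd74 and H2-Eb1 were higher on every transgenic than on every C57BL/6 effector array, H2-DMa was above a log2 value of 5 on all 6 effector arrays without a separation of the strains, and so was H2-Ab1. H2-Aa, Cd86 and Ciita (5 probe sets) were below 5 on all 6.

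**Figure D2:**
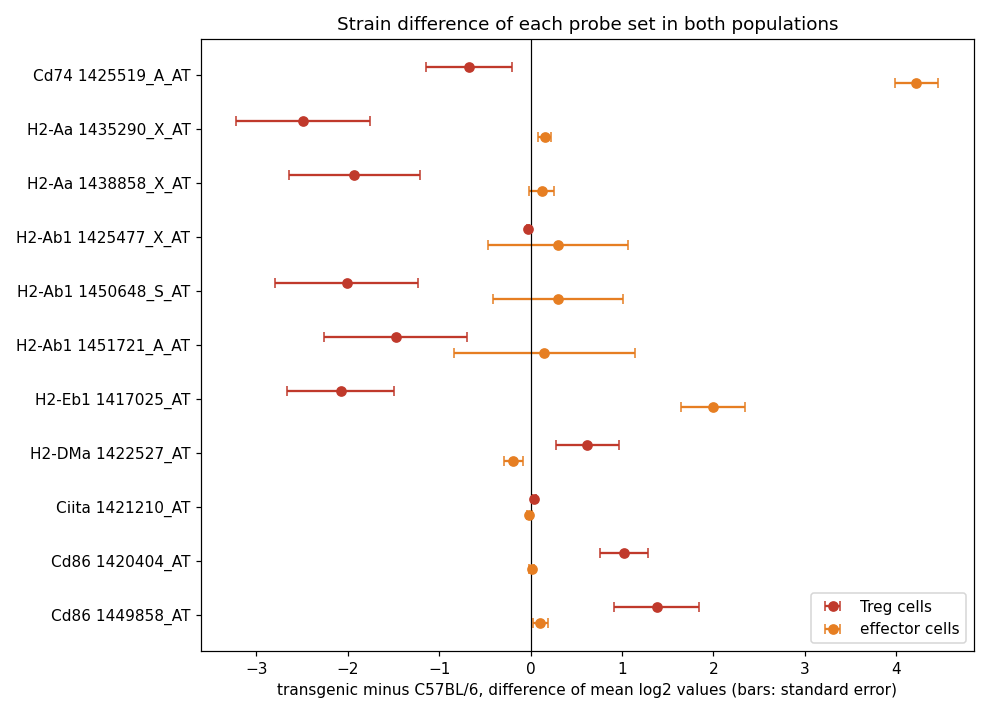
Difference of the mean log2 values, transgenic minus C57BL/6, for each of the 11 probe sets in Treg cells and in effector cells (n = 3 arrays per group), with bars for the standard error from the group spreads. Cd74 lies at 4.22 in effector and -0.67 in Treg cells, H2-Eb1 at 1.99 and -2.08, and the Cd86 probe sets lie above 0 in Treg cells and near 0 in effector cells.

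In Treg cells, whose arrays had no part in the effector comparison, 2 of the 6 probe sets of class II chains (1 of H2-Aa, that of H2-Eb1) were called lower and 1 of the 2 probe sets of Cd86 was called higher in transgenic mice, and none of these 3 calls was made when the 6 Treg arrays were fitted alone. H2-Aa 1435290_X_AT read 6.48, 4.74 and 6.07 in transgenic Treg cells, against 8.64, 8.87 and 7.25 in C57BL/6 Treg cells. The groups did not overlap, and the mean fell to 5.76 ± 0.91 in transgenic, against 8.25 ± 0.88 in C57BL/6 Treg cells (SD, n = 3), a 5.62-fold difference (log2 change -2.49, standard error 0.46, limma adjusted p = 0.0233). H2-Eb1 read 5.09, 3.92 and 4.39 in transgenic Treg cells, against 6.91, 7.13 and 5.60 in C57BL/6 Treg cells, again without overlap (log2 change -2.08, standard error 0.43, limma adjusted p = 0.0437). With 2 transgenic values of H2-Eb1 and 1 of H2-Aa 1435290_X_AT under a log2 value of 5, how far each fell rests on the background correction.

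The other class II probe sets were lower by mean but were not called. H2-Aa 1438858_X_AT read 5.99, 5.04 and 5.52 in transgenic, against 8.03, 8.18 and 6.13 in C57BL/6 Treg cells, without overlap (log2 change -1.93, limma adjusted p = 0.0828). H2-Ab1 1450648_S_AT read 5.11, 3.52 and 4.83 in transgenic, against 7.13, 7.10 and 5.27 in C57BL/6 Treg cells, without overlap (log2 change -2.01, limma adjusted p = 0.254). With 2 of these transgenic values under a log2 value of 5, the size of that change rests on the background correction. The remaining H2-Ab1 probe sets were mostly near the floor: 1451721_A_AT read 3.04, 2.86 and 2.91 in transgenic and 5.74, 4.47 and 3.03 in C57BL/6 Treg cells (limma adjusted p = 0.64), and 1425477_X_AT lay at 3.36 to 3.39 in transgenic and 3.39 to 3.42 in C57BL/6 Treg cells (limma adjusted p = 0.997). Both met the filter only through the effector arrays. For 1425477_X_AT, at the floor on every Treg array, the test could hardly find a strain change. No conclusion is drawn from either of these 2 probe sets. H2-Aa, H2-Ab1 1450648_S_AT and H2-Eb1 shared the order of the arrays, with array 3 lowest among C57BL/6 pools, array 2 lowest among transgenic pools and array 1, of 33-week mice, highest among transgenic pools. Over the 6 Treg arrays these 4 probe sets correlated with each other at r from 0.965 to 0.987, which includes the difference between the strains. The share of CD4+ CD25+ cells after the sort was given as 99.8%, 99.8% and 99.6% for the transgenic Treg samples and 99.4% and 99.9% for C57BL/6 Treg samples 1 and 2, and its part in these values was not tested.

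Cd86 read 8.93, 8.86 and 8.76 on 1420404_AT in transgenic Treg cells, against 7.31, 8.05 and 8.13 in C57BL/6 Treg cells. All transgenic arrays were above all C57BL/6 arrays, and the level was 2.03-fold higher (log2 change 1.02, standard error 0.21, limma adjusted p = 0.0407). The second probe set, 1449858_AT, read 8.91, 8.58 and 8.75 in transgenic and 6.48, 7.62 and 8.01 in C57BL/6 Treg cells, without overlap and 2.60-fold higher, but it was not called (log2 change 1.38, limma adjusted p = 0.0705). H2-DMa read 8.90, 8.38 and 8.61 in transgenic and 8.43, 8.19 and 7.40 in C57BL/6 Treg cells, with overlapping groups (log2 change 0.62, limma adjusted p = 0.426), though higher in transgenic cells in each of the 3 pairs (limma adjusted p = 0.21 with the replicate block). Ciita, at 2.48 to 2.54 in transgenic and 2.44 to 2.50 in C57BL/6 Treg cells, lay below the tested range on every array and was not tested.

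Thus 2 of the 11 members were called lower (H2-Aa 1435290_X_AT and H2-Eb1) and 1 higher (Cd86 1420404_AT) in transgenic Treg cells, 7 were not called and 1 was not tested. Among all tested probe sets 0.805% were called lower and 0.389% higher. Without overlap of the groups, 4 of the 10 tested members were lower and 2 higher, where 7.18% and 7.65% of the tested probe sets were. The median log2 change was -1.07 over the 10 tested members and 0.028 over all tested probe sets. Over all 11 members, with the untested Ciita, it was -0.67. The tested members include H2-Ab1 1451721_A_AT and 1425477_X_AT, which met the filter only through the effector arrays and lay mostly near the floor in Treg cells. Members of 1 gene measure the same transcript and are not independent.

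The Treg calls rest on a spread shared with the effector arrays, where H2-Aa 1435290_X_AT and Cd86 1420404_AT lie near the floor with SDs of 0.020 to 0.12, against 0.083 to 0.91 in the Treg groups. With the 6 Treg arrays alone, the limma adjusted p was 0.265 for H2-Aa 1435290_X_AT, 0.251 for H2-Eb1 and 0.265 for Cd86 1420404_AT, so none was called. Each of the 3 was called in 2 of the 6 fits that left out 1 Treg array. H2-Aa 1435290_X_AT lost its call without C57BL/6 array 1 (limma adjusted p = 0.0689), C57BL/6 array 2 (0.111), transgenic array 2 (0.0569) or transgenic array 3 (0.056). H2-Eb1 lost it without the same 4 arrays (limma adjusted p from 0.109 to 0.187). Cd86 1420404_AT lost it without C57BL/6 array 2 (limma adjusted p = 0.0688) or without transgenic array 1 (0.161), 2 (0.111) or 3 (0.095). The choice of filter mattered too: with no filter on low values the limma adjusted p was 0.084 for H2-Eb1 and 0.053 for Cd86 1420404_AT, and with a filter at a log2 value of 7 it was 0.0607 for Cd86 1420404_AT. Quantile normalization within each population gave 0.0553 for H2-Eb1 (limma adjusted p).

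Other probe sets gained a call when an array was left out. Without C57BL/6 array 3 the limma adjusted p was 0.000625 for H2-Aa 1438858_X_AT and 0.015 for Cd86 1449858_AT, and without C57BL/6 array 1 it was 0.0428 for Cd86 1449858_AT. Replicate number was also added as a block for the same-numbered Treg arrays, a pairing that is weak for arrays 2. In that fit these probe sets were called as well (limma adjusted p = 0.0352 for H2-Aa 1438858_X_AT and 0.0453 for Cd86 1449858_AT). The count over all probe sets was 354. The direction of the Treg change was the same under every alternative for all tested members except H2-Ab1 1425477_X_AT, which lies at the floor.

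Transgenic arrays 1 and 2 and C57BL/6 arrays 1 and 2 of the Treg cells carry consecutive sample codes, while the codes of both arrays 3 lie apart. No label says what a code marks, so handling in 1 batch is only inferred. Among these 4 arrays the means were 5.61 in transgenic and 8.76 in C57BL/6 Treg cells for H2-Aa 1435290_X_AT, 4.50 in transgenic and 7.02 in C57BL/6 for H2-Eb1, and 4.31 in transgenic and 7.11 in C57BL/6 for H2-Ab1 1450648_S_AT. Those of Cd86 1420404_AT were 8.89 in transgenic and 7.68 in C57BL/6 Treg cells. In these probe sets the strain differences were at least as large as over all Treg arrays (log2 -3.15, -2.51, -2.80 and 1.21). In the same probe sets the strains did not overlap over all Treg arrays, so the 4 arrays could not overlap either. Among the 4 arrays Cd74 differed by -0.88 without overlap, against -0.67 over all Treg arrays. H2-DMa differed by 0.33 with overlap, against 0.62 over all Treg arrays. With the codes as a block, each array 3 stood alone in a block of its own, so the fit compared the same 4 arrays. It still shared its spread with the effector arrays, where both H2-Aa probe sets lie near the floor. In that fit the limma adjusted p was 0.0103 for H2-Aa 1435290_X_AT, 0.0302 for H2-Eb1, 0.00337 for H2-Aa 1438858_X_AT and 0.0533 for Cd86 1420404_AT, which thus lost its call. The part of mouse age in these values was not tested.

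**Figure D3:**
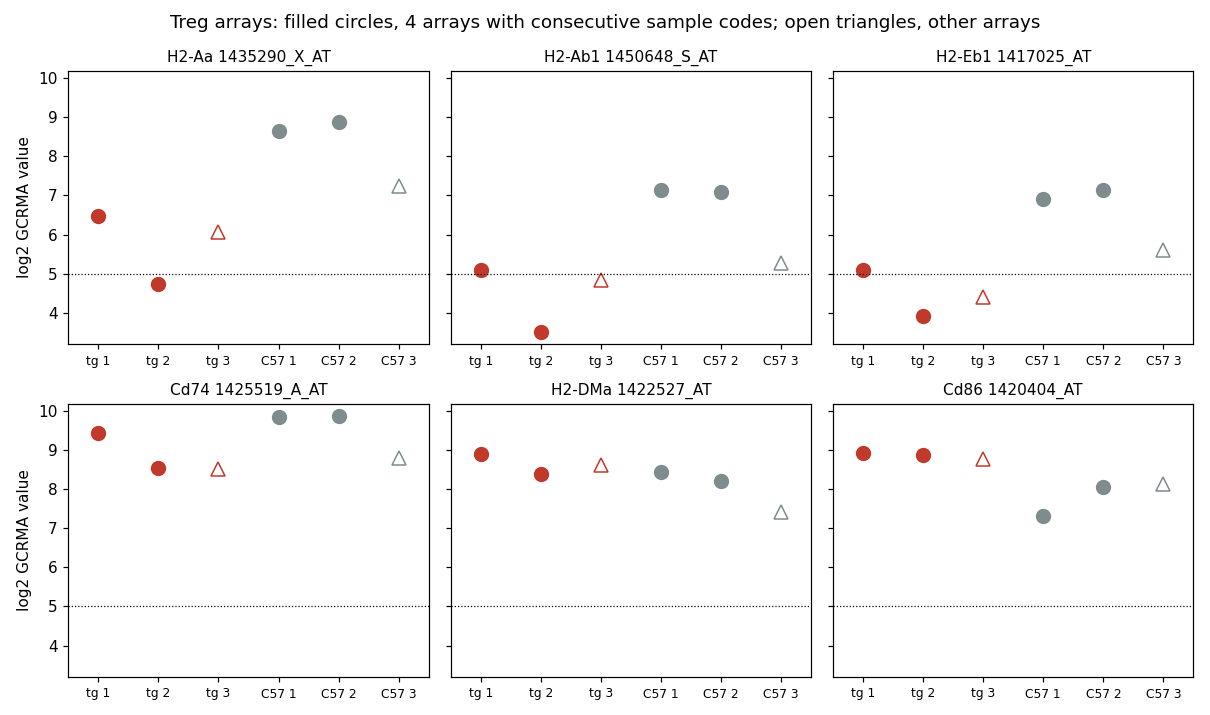
Log2 GCRMA values of 6 probe sets on the transgenic (tg) and C57BL/6 (C57) Treg arrays, numbered by replicate, with filled circles for the 4 arrays of consecutive sample codes and open triangles for the other arrays. H2-Aa 1435290_X_AT, H2-Ab1 1450648_S_AT and H2-Eb1 were lower and Cd86 1420404_AT higher on every transgenic than on every C57BL/6 array, while Cd74 and H2-DMa overlapped between strains.

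H2-Aa and H2-Eb1, each with 1 probe set called lower in transgenic Treg cells, both lie in the MHC on chromosome 17, as does H2-Ab1, and their promoters are shown because class II genes share a known arrangement of boxes, X and Y, through which Ciita acts. The 250 bases before the start are printed 5′ to 3′ from RefSeq (GRCm38.p6). H2-Aa lies on the minus strand (chr17:34287824-34288073) and H2-Eb1 on the plus strand (chr17:34305617-34305866). Capitals mark the letters TNGCAAC (core of the X box), CTGATTGG (Y box, which holds the inverted CCAAT) and TGACGTCA (a cyclic AMP response element).
H2-Aa: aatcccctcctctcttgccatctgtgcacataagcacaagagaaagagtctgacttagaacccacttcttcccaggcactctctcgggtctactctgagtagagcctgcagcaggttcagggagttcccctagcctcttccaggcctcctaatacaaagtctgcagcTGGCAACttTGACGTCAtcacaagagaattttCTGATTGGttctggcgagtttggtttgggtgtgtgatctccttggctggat
H2-Eb1: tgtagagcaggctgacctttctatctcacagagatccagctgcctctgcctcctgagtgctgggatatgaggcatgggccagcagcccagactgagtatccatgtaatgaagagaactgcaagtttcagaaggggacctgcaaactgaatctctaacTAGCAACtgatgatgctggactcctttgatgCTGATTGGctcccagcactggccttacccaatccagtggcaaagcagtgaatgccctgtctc
In H2-Aa the X core began 83 bases and the Y box 51 bases before the start, and in H2-Eb1 they began 93 and 62 bases before it, so they stood 32 and 31 bases apart. TGACGTCA was found in H2-Aa and not in H2-Eb1. On either strand, 8.77% of 32851 promoter windows of the same length held TNGCAAC, 3.83% held CTGATTGG and 1.55% held TGACGTCA. An X core followed within 40 bases by the Y box, on the strand of the gene, was found in 8 windows (0.0244%), these 2 included, a spacing limit chosen with these 2 sequences in view. Neither of the 2 windows listed for H2-DMa held any of the 3 motifs. A match is a description of letters and says nothing of binding in these cells.

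Between the populations the chains of the A pair differed in opposite directions. H2-Aa was higher in Treg than in effector cells on both probe sets in both strains, by 3.38 and 2.31 on the log2 scale in transgenic and 6.02 and 4.35 in C57BL/6 mice. H2-Ab1 was lower in Treg than in effector cells on all 3 probe sets in both strains, by differences of -2.79 to -5.28 in transgenic and -2.46 to -3.66 in C57BL/6 mice. In none of these did the 3 Treg arrays overlap the 3 effector arrays. These values share the effector arrays taken to have led to the list, so they are given without a test. By percentile the directions were the same, for example 62.0 to 71.1 in transgenic Treg and 19.3 to 30.7 in transgenic effector cells for H2-Aa 1435290_X_AT, and 55.4 to 63.6 in transgenic Treg and 82.9 to 92.4 in transgenic effector cells for H2-Ab1 1450648_S_AT. Probe sets whose names end in X_AT or S_AT can hold probes that match more than 1 transcript, which applies to both of H2-Aa and 2 of H2-Ab1.

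Cd86 was higher in Treg than in effector cells by 6.27 and 5.65 on the log2 scale in transgenic and by 5.26 and 4.38 in C57BL/6 mice, with the effector arrays near the floor. H2-DMa lay between 7.40 and 8.90 on all 12 arrays and overlapped between the populations in both strains. Cd74 and H2-Eb1 differed in direction by strain: Treg minus effector was -1.74 for Cd74 and -1.38 for H2-Eb1 in transgenic mice, and 3.15 and 2.69 in C57BL/6 mice. Over the 10 tested members, Treg arrays were entirely above effector arrays in 4 and below in 5 in transgenic mice, where 31.8% and 42% of tested probe sets were. In C57BL/6 mice they were above in 6 and below in 3, where 33% and 43.7% were. Ciita, which was not tested, lay above in both strains, between values near the floor. Both H2-Aa and both Cd86 probe sets met the filter only through Treg arrays, and H2-Ab1 1451721_A_AT and 1425477_X_AT only through effector arrays. The filter thus had a part in these separations, and no conclusion is drawn from the counts. Since only effector cells were cultured and only Treg cells were pooled from several mice, population cannot be told apart from either, and the sample codes of Treg and effector arrays also lay in separate ranges.

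Outside the list, the probe sets whose log2 values followed Cd74 most closely over the 12 arrays were 1419297_AT (Pearson r = 0.988) and 1450357_A_AT (r = 0.954), whose genes are not named in the files used here. Probe set 1419297_AT read 7.43 to 8.12 in transgenic Treg, 7.31 to 8.18 in C57BL/6 Treg, 8.36 to 8.89 in transgenic effector and 5.54 to 6.14 in C57BL/6 effector cells. Probe set 1450357_A_AT read 6.73 to 7.32 in transgenic Treg, 8.83 to 8.99 in C57BL/6 Treg, 9.64 to 9.95 in transgenic effector and 4.16 to 4.95 in C57BL/6 effector cells. Within the list H2-Eb1 was closest to Cd74 (r = 0.791) and the other members ranged from -0.149 to 0.326. The 12 points fall into 4 groups of 3 arrays, so these values mostly restate differences between groups. Over the 6 Treg arrays alone, Cd74 correlated with H2-Aa, H2-Ab1 1450648_S_AT and H2-Eb1 at r from 0.849 to 0.913. For H2-Ab1 1425477_X_AT (r = 0.903), at the floor on every Treg array, and 1451721_A_AT (r = 0.821), mostly near it, no conclusion is drawn. Over the 6 effector arrays r was 0.944 with H2-Eb1, 0.732 and 0.449 with H2-Aa, which lay near the floor there, and 0.042 to 0.185 with H2-Ab1. Both sets of values include the difference between the strains.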

How the data were processed

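RNA of 12 samples was hybridised to Affymetrix mouse arrays after amplification by in vitro transcription (1 round, per the labels' protocols). The authors deposited log2 values, 1 per probe set and array, made with GCRMA per the submitters' processing notes; its version, and whether both populations were normalized together, are not given in the sources used here. Of 45101 probe sets, 64 controls were left out and 18271 with log2 values of at least 5 on 3 or more arrays were tested. Means of the 4 groups were fitted over the 12 arrays in limma 3.58.1 (R 4.3.3; lmFit, eBayes with trend), with Benjamini-Hochberg adjustment over all tested probe sets, and the fit was tested on simulated data. Precision is limited by the number of arrays, and p-values measure the spread between these arrays.

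The members and lists were chosen with earlier results of these data known. Genes are those given with the list of probe sets. Pathway and marker lists (other class II genes, interferon gamma route, class I, B cell, dendritic cell, macrophage, neutrophil and erythroid, CD8 and NK, T cell) and the receptor gene were written by gene symbol and could not be looked up, since no source used here pairs other probe sets with genes. All members are named, and outside them 2 of the 10 probe sets most like Cd74. Replicate numbers from the titles were checked by correlating deviations from group means. Same-numbered Treg arrays correlated at 0.58, 0.10 and 0.51, above the minimum of 0.1, and were taken as paired. Effector arrays (0.21, -0.34 and -0.34) were not. The pairing of Treg arrays 2 is weak, since their value of 0.102 barely passed the minimum. Transgenic Treg array 2 correlated slightly more with Treg array 3 of the other strain (0.114). The main fit did not use the pairing. Alternatives were other normalizations, filters and variance models, array weights, blocks and leaving out each array. Promoters are RefSeq windows (GRCm38.p6), held for H2-Aa, H2-Eb1 and H2-DMa. Figures were drawn with matplotlib 3.10.9.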

Additional observations from a re-analysis of the deposited data

Results flagged for a closer look

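H2-Eb1 (1417025_AT) and H2-Aa (1435290_X_AT) stood out because all transgenic arrays lay below the C57BL/6 arrays in Treg cells and above them in effector cells. The log2 change of H2-Eb1, transgenic minus C57BL/6, was -2.08 in Treg cells and 1.99 in effector cells. That of H2-Aa was -2.49 in Treg cells and 0.15 in effector cells, where all values lay near the floor. The difference between the populations was not tested, because the effector comparison was taken to have led to the choice of the list. Groups of 3 arrays are too small for the check on single outlying values used for larger groups. Over all probe sets, the lowest correlation between arrays of a group was 0.923 in C57BL/6 Treg cells, against 0.965 to 0.985 in the other groups.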

How the results depend on the processing

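The Treg count of 218 called probe sets moved to 135 with a filter at a log2 value of 7, 74 with the 6 Treg arrays alone, 1232 with array weights and 354 with the replicate number as a block, and ranged from 135 (without C57BL/6 array 2) to 255 with 1 array left out. The effector count of 547 moved to 347 without a filter, 223 with the 6 effector arrays alone and 3033 with array weights, and ranged from 266 to 561 with 1 array left out. With a replicate block it was 534, where the arrays are not paired. Array weights gave C57BL/6 Treg array 2 a weight of 5.02 and array 3 one of 0.24, and under them Cd74 was called lower in transgenic Treg cells as well (log2 change -1.12, limma adjusted p = 0.0162). Of 148 recomputed Treg changes of the members, 116 kept their direction and side of the threshold, 20 lost a call and 10 gained one. The other 2 were H2-Ab1 1425477_X_AT, at the floor, which turned to 0.048 with arrays centred on their medians and 0.069 with quantile normalization. The block changed no call of a member other than the 2 named in the report. In effector cells 137 of 138 recomputed changes stayed within 1 SD of their own probe set, which is a wide limit for H2-Ab1. The exception was H2-Ab1 1450648_S_AT with array weights (1.19). With array weights H2-Ab1 1425477_X_AT also moved, from 0.30 to 1.23, and 1451721_A_AT from 0.15 to 1.31. The sign was not kept under every alternative for any H2-Ab1 probe set, H2-Aa 1438858_X_AT or Cd86 1420404_AT. The effector change of Cd74 ranged from 4.10 to 4.44 over 14 alternatives. Values below a log2 value of 5 are limited by the background correction.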
